A study of Mus musculus with 16 samples.

Results

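The Fc gamma receptor family was followed as 5 genes of 55487 in the count table, namely Fcgr1, Fcgr2b, Fcgr3, Fcgr4 and Fcer1g, chosen by name and matched by Ensembl identifier to their symbols. All 5 were among the 12372 genes with enough counts to be tested. RNA came from BMDMs, macrophages differentiated in a dish from the bone marrow of WT Balb/c mice aged 8 weeks. The 16 samples formed 6 groups, and no group carried an engineered allele. In 3 samples the cells were given conditioned media (CM) of 4T1 cells, a mouse mammary tumor line, in 3 the JAK inhibitor ruxolitinib (0.5 μM) was added to it and the label says 4 h (CM + Rux), and 3 more also had IKK-16 at 0.8 μM (CM + Rux + IKK-16). A further 2 samples of CM and 0.5 μM ruxolitinib carry a label of 2 h (CM + Rux 2 h). The groups without tumor factors were DMEM, the culture medium alone, with 2 samples, and DMEM with ruxolitinib (DMEM + Rux) with 3. For DMEM + Rux the labels give neither dose nor time, and for CM, CM + Rux + IKK-16 and DMEM they give no time. Ruxolitinib blocks JAK1 and JAK2, kinases of cytokine receptors. IKK-16 blocks the IKK complex, which releases NF-κB. No group had IKK-16 without ruxolitinib. The labels do not say whether replicates came from separate mice or cultures, so p-values measure the spread between these samples, which may be technical.

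Fc gamma receptors bind the constant part of IgG antibodies and let macrophages take up, kill or respond to antibody-coated targets. In the mouse, Fcgr1 encodes the high-affinity receptor, and Fcgr3 and Fcgr4 encode activating receptors of lower or intermediate affinity. These activating receptors need Fcer1g, the common gamma chain, which carries the ITAM motif that recruits Syk and is also needed to keep them at the cell surface. Fcgr2b encodes the inhibitory receptor, whose ITIM motif recruits the phosphatase SHIP (Inpp5d) and restrains signals from the activating receptors. The balance of activating and inhibitory receptors sets the threshold at which a macrophage responds to immune complexes.

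On the mouse genome GRCm38, the annotation of the count table placed Fcgr2b (ENSMUSG00000026656) at chr1:170958617-170976547 on the minus strand. Next to it on chromosome 1 lay Fcgr4 (ENSMUSG00000059089, 171018920 to 171029761, plus strand) and Fcgr3 (ENSMUSG00000059498, 171051174 to 171064935, minus strand). Fcer1g (ENSMUSG00000058715) lay further along the same chromosome at 171229572 to 171234365 on the minus strand, and Fcgr1 (ENSMUSG00000015947) on chromosome 3 at 96282909 to 96293969 on the minus strand. Counts of a gene come from its exons. Of 5768 exonic windows of 75 bases in Fcgr2b, 313 (5.43%) also occur in other genes. Fcgr3 shares 94 windows with Fcgr2b (5.42% of those of Fcgr3). Fragments in such stretches may have been dropped as ambiguous, so the counts of both genes carry that uncertainty. No 75-base window of Fcgr1, Fcgr4 or Fcer1g occurred in another gene. Genes overlapping the members had at most 11 counts in any sample, the highest being Gm38204, antisense to Fcgr2b.

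The stretches around 3 start sites are shown because Fcgr1 and Fcgr4 hold letters of STAT or interferon response motifs there and Fcgr2b, the inhibitory receptor, does not. The activating receptor Fcgr3 and Fcer1g had no match to either motif, so these letters did not divide the activating genes from the inhibitory one. RefSeq promoter sequences on GRCm38.p6, from 250 bases before to 50 after the annotated start, were found for all 5 members. They were searched on both strands for the STAT motif GAS (TTCNNNGAA), for an interferon response core (GAAANNGAAA), for a PU.1 core (GAGGAA) and for a loose kappa B motif (GGGNNNNNCC). Capitals mark the GAS motif in Fcgr1 (chr3:96293920-96294219, minus strand) and the interferon response core in Fcgr4 (chr1:171018676-171018975, plus strand), while Fcgr2b (chr1:170976022-170976321, minus strand) has neither.
Fcgr1: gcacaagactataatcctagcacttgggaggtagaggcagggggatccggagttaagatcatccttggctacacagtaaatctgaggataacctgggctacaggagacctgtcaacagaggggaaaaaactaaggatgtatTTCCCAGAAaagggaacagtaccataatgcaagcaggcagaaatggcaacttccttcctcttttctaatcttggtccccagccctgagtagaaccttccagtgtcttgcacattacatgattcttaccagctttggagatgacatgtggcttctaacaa
Fcgr4: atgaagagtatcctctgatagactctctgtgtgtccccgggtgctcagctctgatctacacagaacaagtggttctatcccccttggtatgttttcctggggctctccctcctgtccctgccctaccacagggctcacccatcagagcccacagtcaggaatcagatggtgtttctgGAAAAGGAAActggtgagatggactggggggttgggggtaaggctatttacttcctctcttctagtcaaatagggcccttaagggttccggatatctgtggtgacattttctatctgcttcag
Fcgr2b: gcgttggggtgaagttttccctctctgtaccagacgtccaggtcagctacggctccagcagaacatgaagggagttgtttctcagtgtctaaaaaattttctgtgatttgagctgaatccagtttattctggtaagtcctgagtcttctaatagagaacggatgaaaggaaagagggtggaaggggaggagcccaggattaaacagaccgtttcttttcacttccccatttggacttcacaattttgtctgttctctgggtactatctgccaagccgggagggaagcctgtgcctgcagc
The GAS match TTCCCAGAA of Fcgr1 started at position -109 from the start site, and the match GAAAAGGAAA of Fcgr4 at -73. GAS matches occurred in 8.30% and the interferon response core in 3.44% of 32851 RefSeq promoter windows of the same length. The PU.1 core, the letters of a factor that defines the macrophage lineage, was found in Fcgr1, Fcgr3 and Fcgr4 and in 28.3% of all windows. The loose kappa B motif was found in Fcgr2b, Fcgr3, Fcgr4 and Fcer1g, partly as matches that overlap each other, and in 50.8% of all windows. Matches to different motifs did not overlap each other, and a match is a description of letters, not a site.

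The samples held between 18449388 and 46215853 counted fragments, and replicates of a group differed by more than counting noise (chi-square per degree of freedom 13.2 to 50.3). All 10 macrophage markers had counts in every group, with summed levels of 40416 to 57970 CPM (counts scaled to the library size), led by Lyz2. Marco was barely detected, at 0 to 0.162 CPM in DMEM + Rux. By the thresholds given below, 3 of the 10 were called higher and 1 lower in CM against DMEM, beside 20.9% and 24.1% of all genes tested. Cd14 was at 1698 to 2528 CPM in DMEM and at 12334 to 15920 CPM in CM. In CM + Rux against CM, 3 of the 10 were called lower and 0 higher, beside 2.13% and 1.2% of all genes tested. Mertk went from 12.9 to 23.6 CPM in CM to 4.58 to 6.25 in CM + Rux, and Mrc1 from 86.3 to 211 to 45.0 to 72.0. Adgre1 went the other way, from 1346 to 1604 CPM to 1658 to 1776. Markers of other cells that carry Fc receptors were low. Of the 10 neutrophil markers Ly6g was at 0, and 5 had at most 3 counts in any sample. The list summed to 2.42 to 3.60 CPM in DMEM, 9.33 to 10.2 in CM and 5.91 to 7.43 in CM + Rux. Most of this sum was Mmp8, with means of 2.64, 7.38 and 4.44 CPM in these groups. The sum moved in the direction of several receptors, and its part in their changes was not tested. Of the B cell markers Pax5 was at 0 and Ms4a1 had at most 3 counts in any sample. The summed B cell list was carried by Ighm and went the other way, from 80.2 to 144 CPM in DMEM to 10.6 to 14.3 CPM in CM. In the 2 h samples it was 55.7 to 71.4 CPM. Of 8 T and NK cell markers 4 were at 0 and the list summed to at most 0.900 CPM. Of 8 mast cell and basophil markers 6 were at 0. The dendritic cell list was at 0.877 to 2.81 CPM outside the 2 h group, and epithelial markers, which tumor cells in the media would bring, summed to 0.815 to 1.45 CPM in CM and at most 0.118 CPM in DMEM. The part of any of these in the results was not tested. In bulk RNA fewer cells that express a gene and less RNA per cell cannot be told apart.

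**Figure D1:**
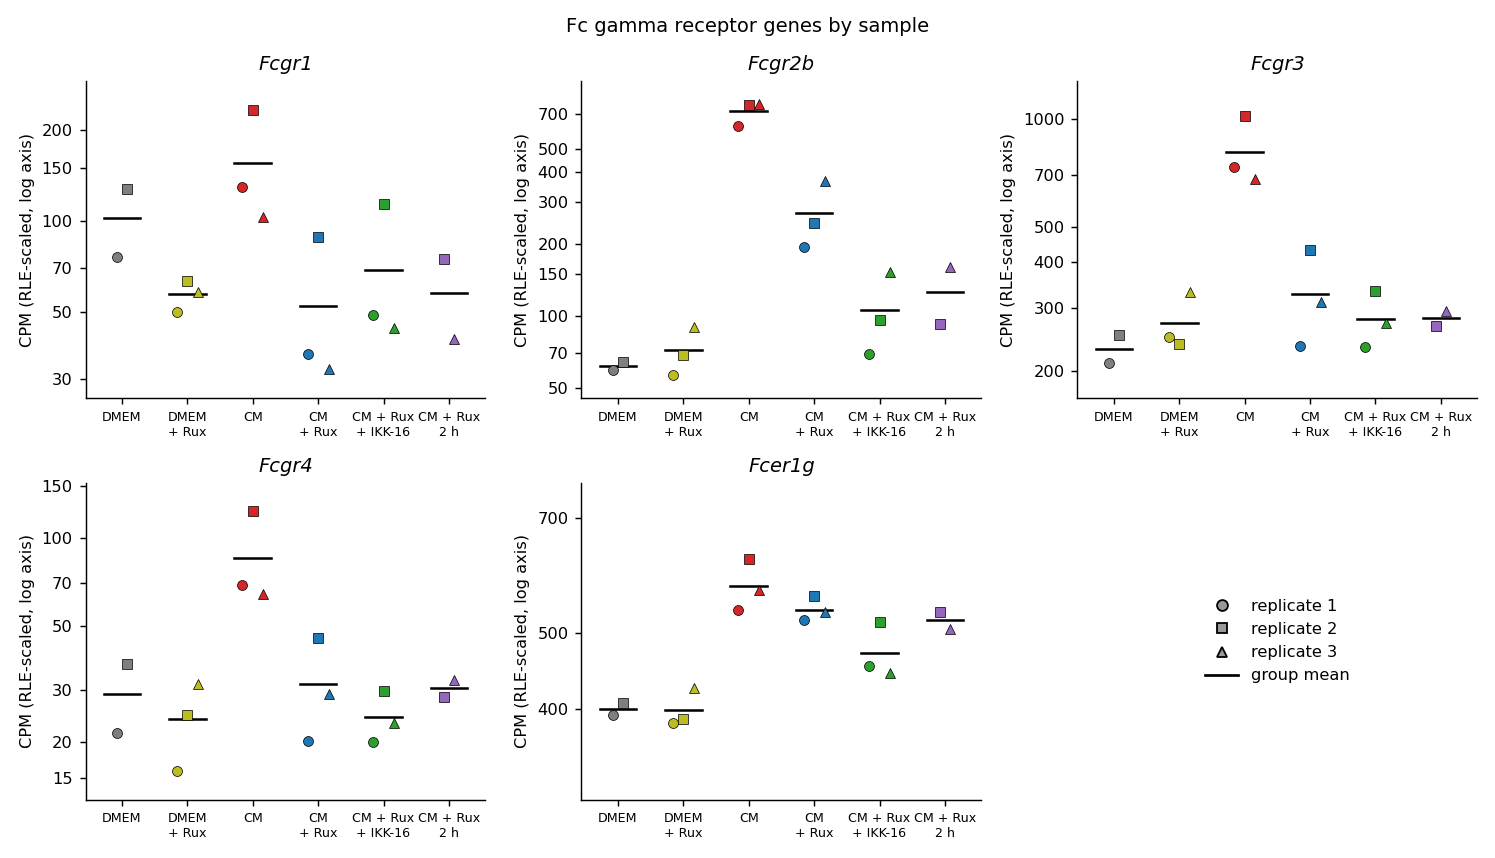
Level of each of the 5 genes in every sample (CPM after RLE scaling, log axis) by group; symbols give the replicate number and bars the group mean. Fcgr2b, Fcgr3 and Fcgr4 stand highest in CM with no overlap with any other group, and replicate 2 is the highest sample of Fcgr1 in each of the 4 CM groups.

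Tumor conditioned media came first, as the question of what soluble tumor factors do to macrophages. With CM, the inhibitory receptor Fcgr2b rose the most of the family, 11.7-fold over DMEM. The activating receptors Fcgr3 and Fcgr4 rose 3.51-fold and 2.96-fold and the common gamma chain Fcer1g 1.43-fold, while the high-affinity receptor Fcgr1 did not pass the test. Thus 4 of 5 members were called higher (adjusted p under 0.05 and a log2 fold change beyond 0.5), where 20.9% of all genes tested were called higher and 24.1% lower. The median log2 fold change of the 5 members was 1.56, beside -0.005 over all genes tested.

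Fcgr2b stood at 59.2 and 63.8 CPM in the 2 DMEM samples and at 625, 763 and 773 CPM in CM. Every CM sample was far above both DMEM samples, and DMEM had the lowest mean of all 6 groups. The log2 fold change was 3.55 ± 0.38 (SE), with an adjusted p of 2.74e-06 (edgeR quasi-likelihood test, Benjamini-Hochberg).

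Fcgr3, an activating receptor of low affinity for IgG, was at 211 and 251 CPM in DMEM and at 735, 1017 and 680 CPM in CM. Its log2 fold change was 1.81 ± 0.26 (adjusted p 3.37e-05, edgeR). The CM samples lay above all other samples of the series, and replicate 2 was the highest.

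Fcgr4, the receptor for IgG2a and IgG2b, stood at 21.4 and 36.8 CPM in DMEM and at 68.7, 123 and 64.2 CPM in CM. The groups did not overlap, although both were spread widely around their means. Its log2 fold change was 1.56 ± 0.39 (adjusted p 0.00307, edgeR).

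Fcer1g was already high in DMEM, at 393 and 408 CPM, and reached 535, 620 and 567 CPM in CM. Its samples lay close together, and the groups did not overlap. The log2 fold change of 0.52 ± 0.09 (adjusted p 1.5e-04, edgeR) was just past the threshold of 0.5 and fell under it in other fits. It was 0.21 with scaling by total counts alone, 0.49 without DMEM replicate 1 and 0.46 without CM replicate 2, with an adjusted p under the threshold each time.

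Fcgr1 was at 76.1 and 128 CPM in DMEM and at 130, 232 and 103 CPM in CM. The groups overlapped, since CM replicate 3 was below DMEM replicate 2, although CM was higher in 2 of 2 pairs of the same replicate number. The log2 fold change was 0.61 with a 95% interval from -0.46 to 1.68 (adjusted p 0.305, edgeR), so neither no change nor a rise of the size seen for Fcgr4 lay outside it.

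Relative scaling mattered here, since scaling by relative log expression (RLE) moved the median gene by 0.31 on the log2 scale compared with total counts. The 4 genes called higher were higher under both scalings, as under TMM. With total counts alone 1536 genes in all were called higher and 4606 lower, against 2584 and 2980 with RLE.

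**Figure D2:**
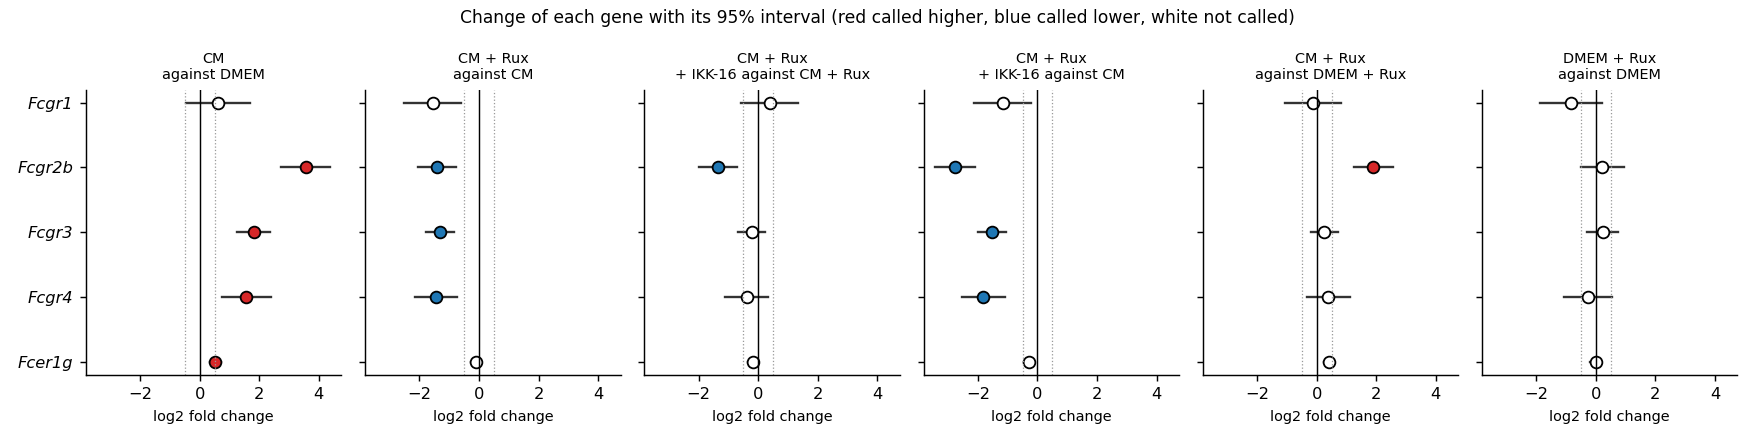
Log2 fold change of each gene (x axis) in 6 comparisons, with lines for the 95% intervals of the edgeR fit and dotted lines at a log2 fold change of 0.5 in either direction. Fcgr2b moved past the threshold in 5 of the 6 comparisons shown, at 3.55 for CM against DMEM, and Fcer1g has the narrowest intervals.

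Ruxolitinib was added to CM to ask which of these genes need JAK activity for their level in tumor media. Each receptor was lower in every CM + Rux sample than in any CM sample, also Fcgr1, which was not called, while Fcer1g overlapped. How many of all genes separated in this way was not counted. Fcgr2b, Fcgr3 and Fcgr4 were called lower, 3 of 5 members, where 2.13% of all genes tested were called lower and 1.2% higher. The median log2 fold change of the 5 members was -1.42, beside 0.007 over all genes.

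Fcgr2b fell from 625, 763 and 773 CPM in CM to 195, 245 and 368 CPM in CM + Rux, a fall of 2.68-fold (log2 fold change -1.42 ± 0.29, adjusted p 0.0119, edgeR). It stayed above every DMEM sample all the same. The call was lost without CM + Rux replicate 1, where the adjusted p was 0.0745.

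Fcgr3 fell to 235, 433 and 312 CPM, 2.48-fold below CM (log2 fold change -1.31 ± 0.22, adjusted p 0.00259, edgeR). CM + Rux thus overlapped the DMEM samples, with replicate 1 between them and replicates 2 and 3 above.

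Fcgr4 fell to 20.1, 45.3 and 29.1 CPM, 2.71-fold below CM (log2 fold change -1.44 ± 0.33, adjusted p 0.0241, edgeR). Its range then covered both DMEM samples. The call was the least firm of the family, with an adjusted p of 0.125 without CM replicate 2, 0.117 and 0.0935 without CM + Rux replicates 1 and 3, and 0.0766 in a model of only the groups compared.

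Fcgr1 was at 36.4, 88.8 and 32.6 CPM in CM + Rux, below the lowest CM sample in each case. The log2 fold change of -1.55 ± 0.45 ranged from -2.17 to -1.14 with a sample left out, -2.17 without CM + Rux replicate 2. The adjusted p was 0.0706 (edgeR) with all samples. Replicate 2 was the highest in both groups, and samples of the same number deviated together in this comparison. In the fit that had a replicate block, Fcgr1 was called lower, at -1.60 ± 0.19 (adjusted p 7.5e-05, edgeR).

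Fcer1g stood at 519, 557 and 531 CPM in CM + Rux, overlapping its CM samples. The log2 fold change was -0.10 with a 95% interval from -0.27 to 0.06, which leaves out a change past 0.5 in either direction.

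The comparison of CM + Rux with DMEM + Rux gives the response to tumor media that was present with the inhibitor. Fcgr2b was the member called higher, 1 of 5, where 22.3% of all genes were called higher and 25% lower. It was at 56.6, 68.4 and 90.0 CPM in DMEM + Rux against 195, 245 and 368 CPM in CM + Rux, with no overlap, a 3.75-fold difference (log2 fold change 1.91 ± 0.30, adjusted p 6.9e-05, edgeR). Fcer1g was also higher in every CM + Rux sample, from 384, 389 and 426 CPM in DMEM + Rux, but its log2 fold change of 0.42 (adjusted p 2.6e-04, edgeR) was under the threshold. Fcgr1, Fcgr3 and Fcgr4 overlapped between these groups, with log2 fold changes of -0.12, 0.26 and 0.39 that did not pass the test.

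Without tumor media, ruxolitinib moved no member past the test. In DMEM + Rux against DMEM 0 of 5 members were called by edgeR, 0 by DESeq2, and 0 had an unadjusted p under 0.05, where 0% of all genes were called higher and 0.97% lower. Fcgr1 came closest, at 50.01, 63.5 and 58.2 CPM with ruxolitinib against 76.1 and 128 CPM without. Every treated sample was lower, but the log2 fold change of -0.83 had a 95% interval from -1.88 to 0.21. For Fcgr2b the interval ran from -0.49 to 0.93, for Fcgr3 from -0.28 to 0.76, for Fcgr4 from -1.07 to 0.54 and for Fcer1g from -0.19 to 0.18.

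Whether ruxolitinib acted differently in CM and in DMEM was tested as the difference between the effects. For Fcgr3 the effect in CM was lower by 1.55 on the log2 scale (log2 difference -1.55 ± 0.33, adjusted p 0.0523, edgeR), for Fcgr2b the difference was -1.64 ± 0.45 (adjusted p 0.137) and for Fcgr4 -1.18 ± 0.50 (adjusted p 0.483). No member was called in the model without the replicate number, where 0.234% of all genes were called higher and 0.178% lower. The 3 genes just named had an unadjusted p under 0.05, and DESeq2 called 2, Fcgr2b and Fcgr3. By the 15 same-number pairs of its groups together, replicate numbers paired this comparison, though DMEM + Rux and DMEM gave 2 pairs. With the number as a block all 3 were called lower, where 247 of all genes were called higher and 197 lower. The blocked differences were -1.45 for Fcgr2b (adjusted p 0.00142), -1.56 for Fcgr3 (adjusted p 0.00379) and -1.18 for Fcgr4 (adjusted p 0.049), all by edgeR.

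IKK-16 was added to CM and ruxolitinib to ask which genes need IKK and NF-κB when JAK is inhibited. The inhibitory receptor Fcgr2b was called lower, 1 of 5 members, where 3.66% of all genes tested were called lower and 4.07% higher. Its level went from 195, 245 and 368 CPM in CM + Rux to 69.2, 96.0 and 153 CPM with IKK-16. The groups did not overlap, and replicate 3 was the highest in both. The fall was 2.54-fold (log2 fold change -1.35 ± 0.30, adjusted p 0.00828, edgeR).

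The activating receptors did not pass the test with IKK-16. Fcgr3 stood at 234, 334 and 272 CPM (log2 fold change -0.22, 95% interval -0.68 to 0.24) and Fcgr4 at 19.9, 29.8 and 23.1 CPM (-0.38, -1.10 to 0.34). Each was lower than in CM + Rux in 3 of 3 pairs of the same number, although the groups overlapped. Fcgr1 was at 49.1, 114 and 44.5 CPM, higher in 3 of 3 such pairs, with a log2 fold change of 0.39 and an interval from -0.56 to 1.34. Whether Fcgr2b differed from the other receptors in its response to IKK-16 was not tested. Fcer1g was at 454, 516 and 445 CPM, below every CM + Rux sample by a small step (log2 fold change -0.18, adjusted p 0.134, edgeR).

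Compared with CM alone, ruxolitinib and IKK-16 together lowered Fcgr2b 6.80-fold (log2 fold change -2.76 ± 0.31, adjusted p 4.1e-05, edgeR). Fcgr4 was 3.54-fold lower (-1.82 ± 0.34, adjusted p 0.00175) and Fcgr3 2.90-fold lower (-1.54 ± 0.22, adjusted p 2.6e-04). These 3 of 5 members were called lower, where 6.13% of all genes were called lower and 6.6% higher. Fcgr1 had a log2 fold change of -1.17 (adjusted p 0.0738), and with the replicate block it was called lower at -1.20 (adjusted p 2.2e-04). Fcer1g was lower by less than the threshold (-0.28, adjusted p 0.0173). The comparisons with CM + Rux and with CM share samples, so they are not independent of each other.

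In the 2 samples labelled 2 h, Fcgr2b was at 92.4 and 161 CPM, below each CM + Rux sample labelled 4 h, with a log2 fold change of -1.09 ± 0.34 (adjusted p 0.0201, edgeR). It was the member called lower, 1 of 5, where 10.7% of all genes were called lower and 12.6% higher. Without CM + Rux replicate 3 the adjusted p was 0.0762, and without 2 h replicate 2 it was 0.19. The other 4 genes overlapped between these groups, Fcer1g at 532 and 506 CPM, Fcgr3 at 267 and 293, Fcgr4 at 28.4 and 32.6, and Fcgr1 at 74.95 and 40.9. Levels of Zbtb46, a dendritic cell marker, averaged 10.1 CPM in the 2 h samples against 1.90 in CM + Rux, and those of Ighm 63.0 against 12.9. Their part in the difference was not tested.

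Ordered by mean level, the groups of Fcgr2b ran from CM (720 ± 83 CPM, SD, n = 3) over CM + Rux (269 ± 89), CM + Rux 2 h (127 ± 48, n = 2), CM + Rux + IKK-16 (106 ± 43) and DMEM + Rux (71.7 ± 17) to DMEM (61.5 ± 3.3, n = 2). CM and CM + Rux were each apart from the next group, and the neighbours below them overlapped. For Fcgr3 CM (811 ± 180 CPM) was apart from CM + Rux (327 ± 100), and the 5 groups from CM + Rux down to DMEM (231 ± 29) overlapped with their neighbours. Fcgr4 had the same form, with CM at 85.5 ± 33 CPM and the other means between 24.0 and 31.5. Fcer1g formed an upper set of the 4 CM groups (means 472 to 574 CPM) apart from both DMEM groups, each near 400 (400.3 in DMEM and 399.5 in DMEM + Rux). No neighbours of Fcgr1 were apart, with CM at 155 ± 68 CPM, DMEM at 102 ± 37 and the other 4 means between 52.6 and 69.2.

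Levels of different genes were compared only per length, as CPM per kb of exon. On this scale Fcgr3 made up 64.9% to 74.5% of the summed level of the 4 receptors in the group means. These shares depend on the length used, and shares of Fcgr2b with transcript lengths are given below. The share of Fcgr2b was 5.22% ± 0.74 (SD, n = 2) in DMEM and 5.85% ± 0.48 (n = 3) in DMEM + Rux. It was 17.7% ± 3.6 in CM, 17.1% ± 5.6 in CM + Rux, 8.22% ± 3.4 with IKK-16 and 9.43% ± 3.1 at 2 h. The summed receptor level was 206 CPM per kb in DMEM, 719 in CM, 280 in CM + Rux and 225 with IKK-16. The share of Fcgr2b in CM + Rux overlapped that in CM, while the summed level in CM + Rux overlapped that in DMEM.

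**Figure D3:**
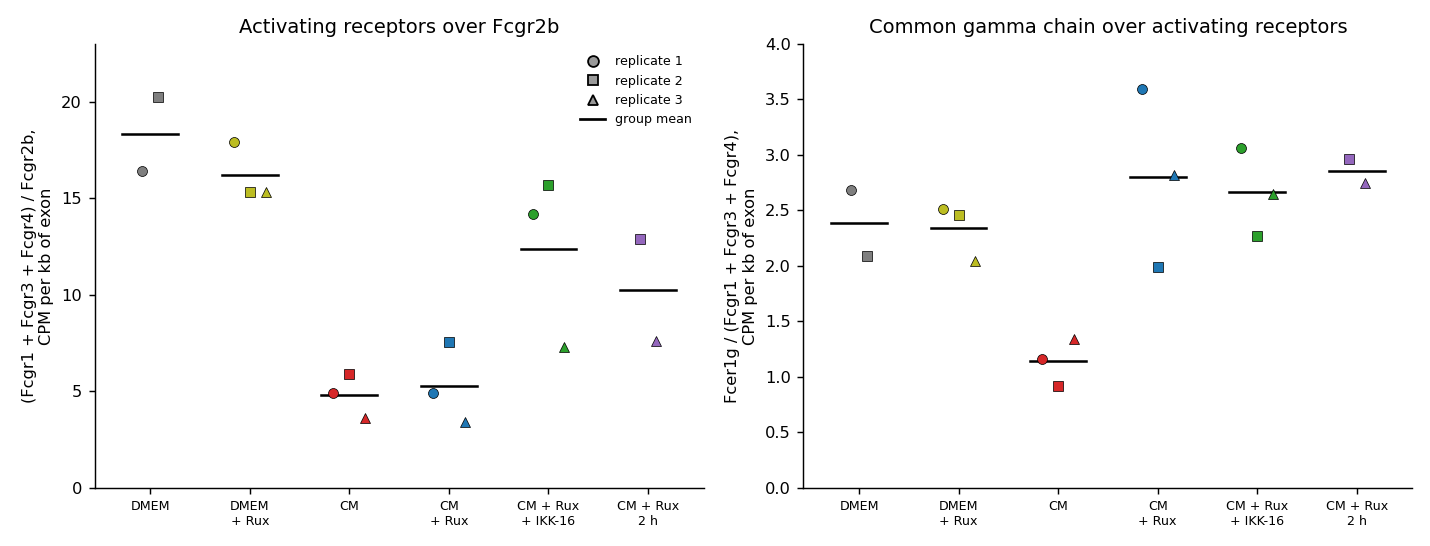
Left, summed level of Fcgr1, Fcgr3 and Fcgr4 over that of Fcgr2b, and right, Fcer1g over the summed activating receptors, both as ratios of CPM per kb of exon, in every sample; symbols give the replicate number and bars the mean. The left ratio lies between 3.39 and 7.55 in CM and CM + Rux and between 15.3 and 20.3 in both DMEM groups, while the right ratio is lowest in CM.

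The ratio of the activating receptors to Fcgr2b per length was 18.3 ± 2.7 in DMEM, with samples at 16.4 and 20.3, and 4.80 ± 1.1 in CM, with samples at 3.62 to 5.87. In CM + Rux it was 5.28 ± 2.1 and overlapped CM, with IKK-16 it was 12.4 ± 4.5, and at 2 h 10.2 ± 3.7. The IKK-16 samples ranged from 7.28, inside the CM + Rux range, to 15.7. The sizes of these ratios depend on the length used, because the exons of Fcgr2b add up to 5790 bases over all its transcripts while its 4 protein-coding transcripts have a median of 1520. With median transcript lengths, a choice made after seeing the data, the ratio was 5.84 in DMEM, 1.57 in CM, 1.73 in CM + Rux and 4.03 with IKK-16. The share of Fcgr2b was then 14.7% ± 1.7 in DMEM, 39.5% ± 5.7 in CM, 38.1% ± 9.1 in CM + Rux and 21.2% ± 7.2 with IKK-16. Fcgr3 stood at 612 CPM per kb of transcript in CM, beside Fcgr2b at 474. With these lengths the summed receptor level was 277 CPM per kb of transcript in DMEM, 469 in CM + Rux and 1214 in CM, and on this scale the samples of CM + Rux lay above both DMEM samples rather than overlapping them. The order of these groups' ratios was the same on both scales, but in DMEM the mean level of Fcgr2b was below that of Fcgr1 per exon kb (10.6 against 39.4) and not per transcript kb (40.5 against 39.4).

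Fcer1g exceeded the summed level of Fcgr1, Fcgr3 and Fcgr4 per length in most samples, with a ratio of 2.38 ± 0.42 in DMEM and 2.80 ± 0.80 in CM + Rux. Other receptors that pair with Fcer1g, such as the C-type lectin Clec4e, were not part of this sum. In CM the ratio was 1.14 ± 0.21, with samples at 0.918 to 1.34, below every sample of the other 5 groups. Whether the ratio differed between groups was not tested.

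Genes of the same pathway were taken from 4 lists. Among 14 other Fc receptors and Fc receptor-like genes, 6 were tested. With CM 2 were called higher and 3 lower, beside 20.9% and 24.1% of all genes. Fcrlb, an intracellular Fc receptor-like gene next to Fcgr2b, had 2 and 3 counts in the DMEM samples and averaged 5.22 CPM in CM. Summed counts gave a ratio of 61.3 with a 95% counting interval from 26.1 to 190, which covers counting error only. Cd247, the zeta chain, was called higher from 1 and 3 counts in DMEM to 0.748 CPM in CM (ratio 9.94, interval 3.66 to 37.9). Fcrl1, a B cell gene of the receptor-like family, fell from 11.3 to 1.34 CPM, together with Fcgrt, the neonatal Fc receptor that recycles IgG (log2 fold change -0.83), and Trim21, the cytosolic antibody receptor (-0.67).

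Of 7 other receptors that pair with Fcer1g, 4 were tested. With CM 3 of them were called higher and 1 lower, beside 20.9% and 24.1% of all genes. The C-type lectins Clec4e (Mincle), Clec4n (dectin-2) and Clec4d rose, with log2 fold changes of 2.99 ± 0.28, 1.62 ± 0.20 and 1.16 ± 0.10. Clec4e reached 2655 CPM in CM. Pira2, called lower at -0.91, belongs to a multigene family and its counts are uncertain. Clec4n was the one member of this list called lower with ruxolitinib in CM, where 2.13% of all genes were called lower. It went from 285 ± 47 to 118 ± 27 CPM (-1.27 ± 0.17, adjusted p 6.3e-04, edgeR).

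In the activating cascade below ITAM receptors, 35 of 36 genes were tested, and with CM 11 were called higher and 8 lower, beside 20.9% and 24.1% of all genes. The list's median log2 fold change was 0.08. The kinase Src rose from 17.8 to 300 CPM (299.5, log2 fold change 4.07 ± 0.19), and Malt1, of the CARD9 complex that leads to NF-κB, rose by 3.20 ± 0.13 and the adaptor Lcp2 (SLP-76) by 2.02 ± 0.17. The kinase Syk, which binds the phosphorylated ITAM, went from 616 to 1468 CPM (a change of 1.25 ± 0.09). The adaptors Blnk (-1.44 ± 0.28) and Lat2 (-1.27 ± 0.13) and the ubiquitin ligase Cblb (-1.08 ± 0.23) fell. With scaling by total counts the list had 9 genes higher and 10 lower, and its median turned to -0.23.

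Of the 10 enzymes and adaptors on the inhibitory side, 1 was called higher in CM and 3 lower, near the shares over all genes of 20.9% and 24.1%. The median was -0.36. With scaling by total counts 0 of the 10 were higher and 7 lower, and the median was -0.67. Over all 12372 genes that scaling called 1536 higher and 4606 lower. The phosphatase Ptpn11 (SHP-2) rose by 0.64, a call lost with scaling by total counts (0.33). Pag1 (-1.10), the SHIP relative Inppl1 (-0.74) and the adaptor Dok1 (-0.71) fell.

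**Figure D4:**
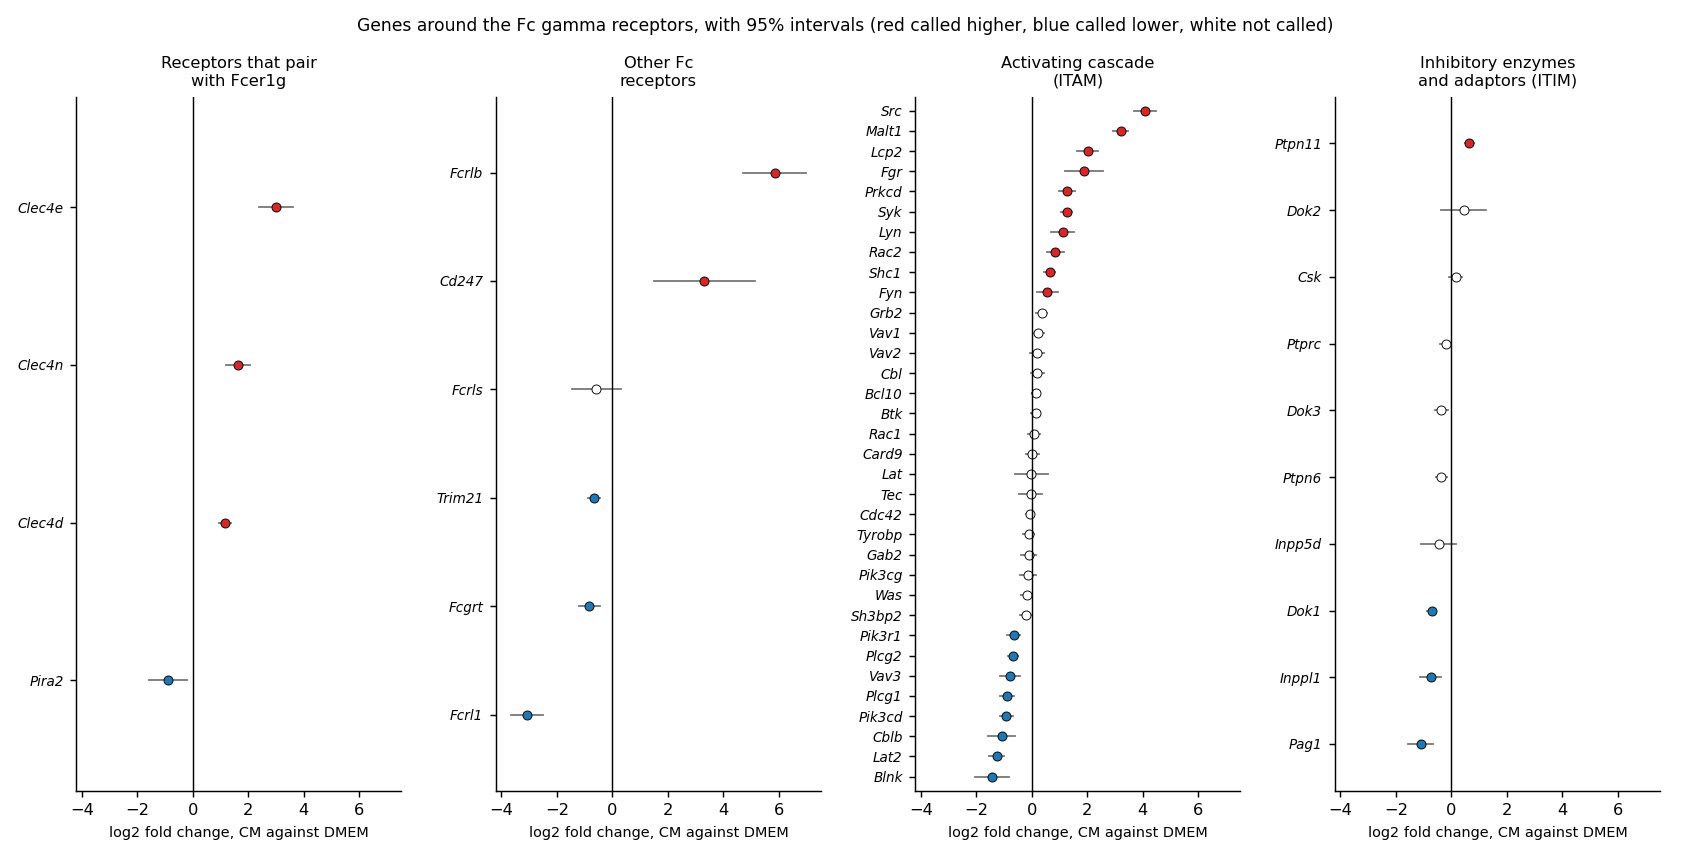
Log2 fold change in CM against DMEM (x axis) of tested genes from 4 lists, 1 row a gene, with 95% intervals of the edgeR fit. The C-type lectins and Src, Malt1, Lcp2 and Syk lie to the right of 0 and Blnk, Lat2 and Pag1 to the left; the values of Fcrlb and Cd247 rest on at most 3 counts in each DMEM sample.

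Ruxolitinib in CM moved 4 of the 55 list genes tested past the threshold, 1 higher and 3 lower, beside 1.2% of all genes called higher and 2.13% lower. Of the other Fc receptor genes 1 of 6 was called lower, Fcrlb (5.22 to 1.61 CPM, log2 fold change -1.66 ± 0.30). In the activating cascade Blnk was called higher (26.1 to 62.3 CPM, log2 fold change 1.25 ± 0.26) and the kinase Tec lower (-0.81 ± 0.18). With the replicate block the Src family kinase Fgr was called lower as well (-0.87, adjusted p 0.0153). Of the inhibitory list 0 of 10 were called by edgeR, 2 had an unadjusted p under 0.05 and DESeq2 called 1. Inpp5d, the SHIP phosphatase that Fcgr2b recruits, was at 160 ± 44 CPM in CM and 91.4 ± 30 CPM in CM + Rux (-0.81, adjusted p 0.123). With the replicate block Inpp5d was called lower (-0.82, adjusted p 1.5e-04), and so was the adaptor Dok2 (-0.65, adjusted p 0.0437).

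With IKK-16 added, 3 of the 6 other Fc receptor genes were called lower, where 3.66% of all genes were called lower and 4.07% higher. They were Fcrlb (1.61 to 0.381 CPM, log2 fold change -2.11 ± 0.36), Cd247 (-1.82 ± 0.51) and Trim21 (-0.67 ± 0.09). Among the 35 tested genes of the activating cascade 4 were called lower and 1 higher, beside the same shares. Of these, Src (-0.80 ± 0.14), Lcp2 (-0.77 ± 0.14) and Malt1 (-0.71 ± 0.10) fell, and Lat2 rose (0.99 ± 0.12). In the replicate block Lat was also called higher (0.70, adjusted p 0.02). Inpp5d went from 91.4 to 180 CPM (0.98 ± 0.27, adjusted p 0.0263, edgeR), opposite to its receptor Fcgr2b.

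On chromosome 1, 35 annotated genes overlapped the stretch from 100 kb before the first to 100 kb after the last of the 4 members there, and 21 were tested, 17 of them not members. This stretch was chosen after values had been seen, and so were the genes named from it. With CM 5 of the 17 were called higher and 2 lower, beside 20.9% and 24.1% of all genes. Gm10522, which lies between Fcgr2b and Fcgr4 at 170981944 to 170986466, had 1 count in each DMEM sample and averaged 2.05 ± 0.51 CPM in CM, a ratio of 62.7 with a counting interval from 17.1 to 522. It was at 0.740 ± 0.22 CPM in CM + Rux and at most 0.117 CPM with IKK-16. With ruxolitinib 2 of the 17 were called lower, Fcrlb and Gm10522, on opposite sides of Fcgr2b, beside 2.13% of all genes, while Gm2962 between Fcrlb and Fcgr2b was not called (0.25). With IKK-16 3 were called lower, Fcrlb, Gm10522 and the protease Adamts4, beside 3.66% of all genes. Sdhc, between Fcgr3 and Fcer1g, was not called in these comparisons.

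**Figure D5:**
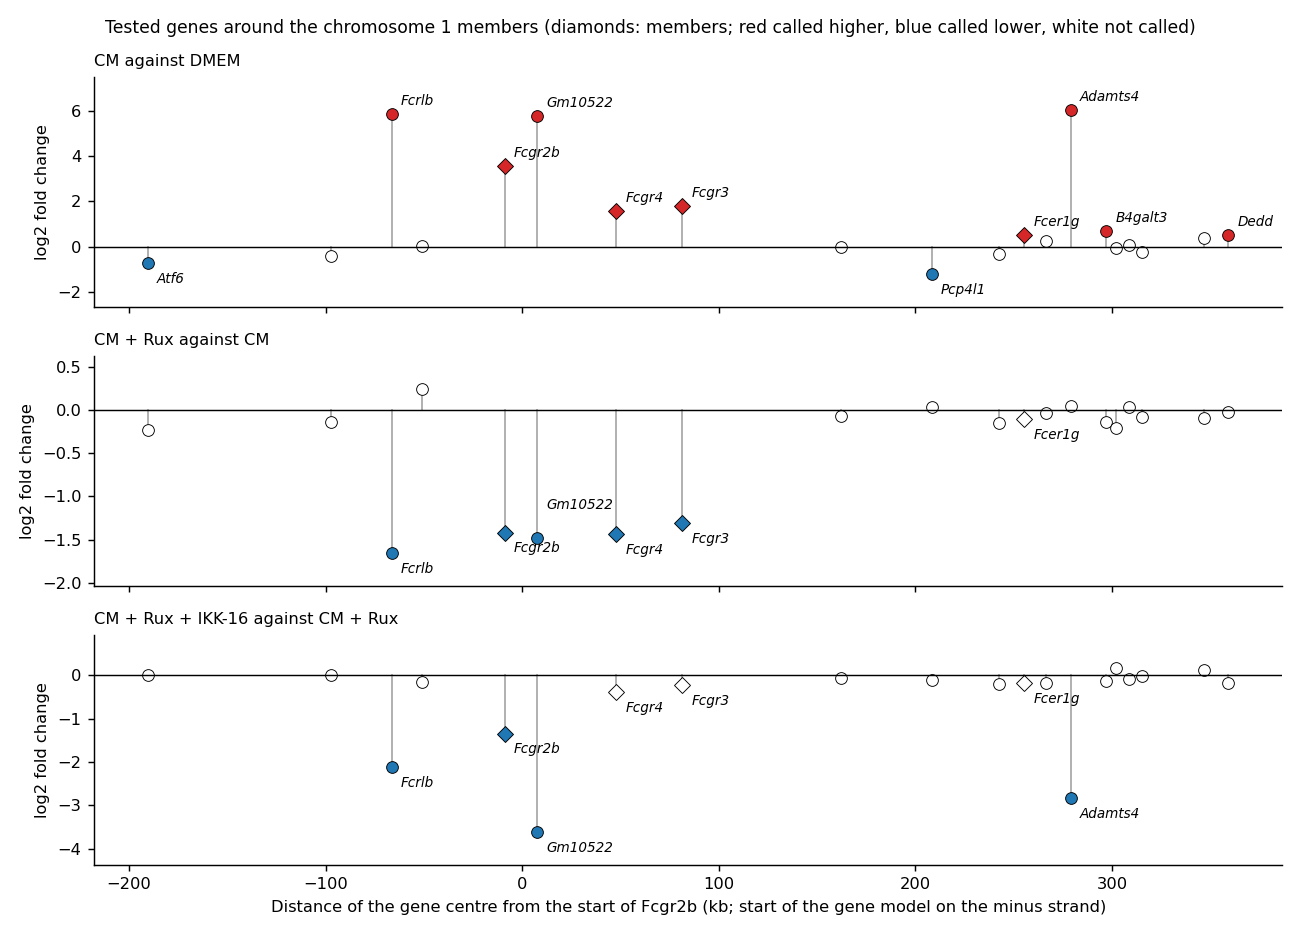
Fitted log2 fold change (y axis) of tested genes around the chromosome 1 members, by distance of the gene centre from the start of Fcgr2b in kb (x axis), in 3 comparisons. In the middle panel the 5 genes called lower lie between Fcrlb and Fcgr3, with Gm2962 among them not called; fitted values of Fcrlb and Gm10522 against DMEM rest on at most 3 counts in each DMEM sample.

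Genes with the most similar pattern over the 16 samples were found by Pearson correlation of log2(CPM + 1). These values are descriptions over samples that share groups and replicate numbers. For Fcgr2b they were Jak3 (r = 0.972), Plod2 (0.961) and Ext1 (0.954). Jak3 stood at 26.7 CPM in DMEM, 63.2 in CM, 38.6 in CM + Rux and 30.6 with IKK-16, the same order as Fcgr2b in these 4 groups. Fcgr3 was most like Plod1 (0.974), Clec4n (0.951) and Fcgr4 (0.945), and Fcgr4 most like Fcgr3, Plod1 (0.943) and Dennd1a (0.942). For Fcer1g they were Tpm3-rs7 (0.972), Gja1 (0.971) and Phlda1 (0.970). The closest for Fcgr1 were Rhoh (0.894), Casp6 (0.877) and Slc12a7 (0.873). Among the members themselves the correlation was highest between Fcgr3 and Fcgr4 and lowest between Fcgr1 and Fcer1g (0.338).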

How the data were processed

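The data are RNA-sequencing counts of 16 BMDM samples. The authors trimmed reads with Trimmomatic 0.33, aligned them to GRCm38 with HISAT2 2.1.0 and counted stranded fragments per gene with featureCounts 1.6.2 and the Ensembl 100 annotation, leaving out fragments of several alignments or genes. The deposited table holds raw counts, neither scaled nor filtered. Counting each library this deeply puts 3 counts at 0.067 to 0.175 CPM.

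Filtering left 12372 genes that exceeded 1 CPM in 2 samples or more. Scaling was by relative log expression (RLE), and 1 model of 6 groups was fitted with the quasi-likelihood test of edgeR 4.0.16 (limma 3.58.1, R 4.3.3), with Benjamini-Hochberg adjustment over all genes tested. Calls need an adjusted p under 0.05 and a log2 fold change beyond 0.5. Scaling, filter and thresholds follow the study's methods. These name edgeR and, under statistics, a Student test with Tukey's comparison for the sequencing results, in whose place the count model was used here. The fit was run on simulated counts with changes planted in CM + Rux alone and read in CM + Rux against CM. These counts had the same spread for all genes and no effect of the replicate number. They therefore do not test the other comparisons or the replicate block. CPM are RLE-scaled. Python 3.11.15 (pandas 2.3.3, numpy 2.4.6, matplotlib 3.10.9) made the other tables.

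The members and lists were chosen with earlier results of these data known. Named genes are the 5 members and, per list, up to 3 called in each direction with the most extreme changes in CM against DMEM, CM + Rux against CM and the addition of IKK-16, and the 3 genes most like each member. Others were named after their values were seen: Fgr, Dok2 and Lat from the block fit, Syk, Malt1 with IKK-16, Inpp5d with ruxolitinib, and the chromosome 1 neighbours. A few genes of the lists and of this stretch are not reported here by name or in the plots, but count in the totals.

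Replicate numbers were taken to pair samples where a comparison had at least 3 pairs and the deviations of each from the group means correlated above 0.1. This held for CM + Rux against CM (r 0.574 to 0.756), CM + Rux + IKK-16 against CM + Rux (0.621 to 0.735) and CM (0.507 to 0.642), CM + Rux against DMEM + Rux (0.159 to 0.390) and the difference of the ruxolitinib effects. Alternatives were TMM, total counts, no filter, the replicate block, only the groups compared, DESeq2 1.42.0, no fold threshold and each sample left out.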

Additional observations from a re-analysis of the deposited data

Results flagged for a closer look

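The effect of ruxolitinib on 3 receptors differed between CM and DMEM by a test of the difference itself, in the fit that had a replicate block. The log2 difference was -1.45 for Fcgr2b, -1.56 for Fcgr3 and -1.18 for Fcgr4 (adjusted p 0.00142, 0.00379 and 0.049, edgeR). In CM + Rux these receptors were lower than in CM in 3 of 3 pairs of the same number. In DMEM + Rux against DMEM, Fcgr2b and Fcgr3 were higher in 1 of 2 pairs and lower in the other, and Fcgr4 was lower in 2 of 2. Unblocked, no member was called, and the adjusted p was 0.137, 0.0523 and 0.483 (edgeR). With the block 247 of 12372 genes tested were called higher and 197 lower. The dose and time of ruxolitinib in DMEM are not given in the labels, so dose, time and medium cannot be told apart.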

How the results depend on the processing

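Of 40 log2 fold changes (5 genes in 8 comparisons), 20 kept their direction and their side of the threshold in all 22 alternatives, and 10 changed sign in at least 1, of which 0 were called in the main model. For the difference of the ruxolitinib effects the members called lower were 3 with the replicate block, 3 without a filter on low counts, 2 with DESeq2, 1 with TMM and 1 with total counts, and 0 to 1 with a sample left out. Members called lower in CM + Rux against CM were 1 to 4 with a sample left out, the 1 without CM + Rux replicate 1. In CM + Rux 2 h against CM + Rux they were 0 to 1. In CM + Rux against DMEM + Rux 2 were called higher with no fold threshold. The cause of these shifts was not tested. Sign changes among values not called were Fcer1g in DMEM + Rux against DMEM (0.00325 with TMM, 0.0105 with total counts and -0.0515 to 0.0262 with a sample left out), Fcgr2b there with the replicate block (-0.0233) and Fcgr3 in CM + Rux against DMEM + Rux with total counts (-0.0481). With a sample left out the ranges were -0.612 to 0.175 for Fcgr4 in DMEM + Rux against DMEM, -0.175 to 0.999 for Fcgr1 and -0.417 to 0.0318 for Fcgr3 with IKK-16 added, -0.731 to 0.127 for Fcgr1 in CM + Rux against DMEM + Rux, and -0.374 to 0.754 for Fcgr1, -0.413 to 0.0334 for Fcgr3 and -0.298 to 0.313 for Fcgr4 in CM + Rux 2 h against CM + Rux. Where this left DMEM or the 2 h group with 1 sample, that sample was assumed to vary like the other groups.

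Fcgr1 in CM + Rux against CM was called lower without a filter (adjusted p 5.6e-05), without CM + Rux replicate 2 (0.0143) and without CM + Rux + IKK-16 replicate 2 (0.0378). With the replicate block it was also called higher in CM against DMEM (0.746, adjusted p 0.00596), where 2 same-number pairs give no more than a shared number. Every sample, 16 of 16, correlated best with a sample of its own number. Beside the calls given with the results, the block changed no other call of a member.

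Over all genes the difference of the ruxolitinib effects had 29 genes higher and 22 lower, 247 and 197 with the block, 213 and 136 without a filter, 147 and 87 with DESeq2 and 49 and 41 with total counts. The comparison of CM + Rux with CM had 149 higher and 263 lower, 305 and 440 with the block and 269 and 416 without a filter. DMEM + Rux against DMEM had 120 lower, and 180 without a filter. Total counts gave 1699 higher and 4674 lower in CM + Rux against DMEM + Rux (2761 and 3096 in the main model), 727 and 350 with IKK-16 added (504 and 453), 1255 and 587 for IKK-16 against CM (817 and 758), and 1339 and 1704 at 2 h (1556 and 1327). RLE moved the median gene by 0.30 in CM + Rux against DMEM + Rux relative to total counts, and the shift was -0.11 for IKK-16 with ruxolitinib against CM. Genes of the lists were not refitted with a sample left out.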
